A study of Homo sapiens with 18 samples.

Results

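Transcript levels were compared in NCI-H1693 cells after 6 h in 50 nM PRT3789 and after 6 h in the solvent DMSO. The comparison used 6 of the 18 libraries of the series: 3 labelled PRT3789 at 6 h and 3 labelled DMSO at 6 h. They were chosen by those labels alone and fitted without the other 12, which hold the same pair of treatments at 48 h and 72 h. NCI-H1693 is a long-established line of human lung cancer of the non-small cell type. The labels describe it as deficient in SMARCA4, so control and treated cells share that background. All cells were grown in medium with serum, and polyadenylated RNA was read as pairs of 150 bases. The groups are a single line at a single dose, and the labels do not say whether the 3 libraries of a group came from separate cultures. The p-values therefore measure the spread between these libraries, which may be technical.

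SMARCA2 and SMARCA4 are the alternative ATPase motors of the SWI/SNF (BAF) complexes, which slide and evict nucleosomes and keep enhancers and promoters open. Cancer cells that have lost SMARCA4 commonly rely on SMARCA2. PRT3789 is a bifunctional molecule that brings SMARCA2 to an E3 ubiquitin ligase, so that the protein is destroyed by the proteasome. An early time point is commonly used to look at transcripts before later rounds of change in the cell build up.

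The DMSO libraries held 24802073, 26096148 and 23402300 counts, and the PRT3789 libraries 30043657, 28576374 and 30690452. In the DMSO libraries 14743, 14928 and 14899 genes reached 10 counts, and in the PRT3789 libraries 15120, 15122 and 15330. Every PRT3789 library was thus deeper than every DMSO library, and the part of depth in the results was not tested. Reads carry no molecular identifiers, so this depth bounds counting error only. Levels are given as CPM, edgeR's count of a gene over the library total scaled by TMM factors. Within a group, the 6 h libraries were less alike than those of 48 h and 72 h: over genes, log2 CPM had a median SD of 0.163 in DMSO and 0.146 in PRT3789, and of 0.0597 to 0.115 in the later groups. Deviations from the mean of all 6 libraries, which also hold the difference between the groups, followed transcript length. The Spearman correlation across genes was 0.388, -0.291 and -0.380 in the DMSO libraries and 0.233, 0.371 and -0.380 in the PRT3789 libraries. Genes are not independent replicates, and these correlations describe each library. Ribosomal protein genes took 6.47% to 11.3% of the counts. Ribosomal RNA genes took 5.13% in DMSO replicate 2 and 1.04% to 2.18% in the other 6 h libraries. With each library's trend with length removed, 49 genes were called higher and 173 lower, against 21 and 126 without that step, and 21 and 119 of them were shared. With the length correlation as a covariate, added after seeing the data, 690 and 1059 were called. The part of the ribosomal protein and ribosomal RNA shares in the results was not tested.

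The transcripts of the target and of its paralogue did not pass the test. SMARCA2 stood at 41.3, 36.7 and 33.5 CPM in the DMSO libraries and at 40.5, 42.3 and 32.9 CPM in the PRT3789 libraries. Its log2 fold change (log2FC, PRT3789 over DMSO) was 0.05 ± 0.13 (SE; edgeR adjusted p = 0.982), and the groups overlapped. A degrader acts on the protein, so the SMARCA2 transcript does not check the labels. SMARCA4 transcripts were present at 6.06, 6.45 and 11.2 CPM in DMSO and at 7.19, 6.74 and 7.51 CPM in PRT3789, which speaks to the transcript only and not to the labelled deficiency of the protein. The 27 measured SWI/SNF subunits held 0 called genes and a median log2FC of 0.06, and the 12 measured genes of the VHL ubiquitin ligase list likewise held 0.

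Epithelial identity of the line was visible in the libraries. The summed level of EPCAM, CDH1, KRT7, KRT8, KRT18 and KRT19 was 7865 to 9746 CPM in DMSO and 7517 to 9017 CPM in PRT3789. Blood cell markers, 25 genes of which 11 had no count in any of the 6 libraries, summed to 17.3 to 17.5 CPM in DMSO and to 12.8 to 15.9 CPM in PRT3789. Most of that sum was CD68, at 13.9 ± 0.36 CPM (SD, n = 3) in DMSO. Endothelial and fibroblast markers, 20 genes with at least 1 count each, summed to 153 to 163 CPM and 147 to 157 CPM. LUM, a matrix proteoglycan gene, made up most of it with 113 ± 9.04 CPM in DMSO and 106 ± 10.3 CPM in PRT3789 (SD, n = 3). These are bulk libraries, in which fewer cells of a type and less RNA per cell cannot be told apart.

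After 6 h, edgeR called more transcripts lower than higher in PRT3789. Of 15061 tested genes, 126 were called lower (0.837% of the genes tested) and 21 were called higher (0.139%) at an adjusted p under 0.05, and 147 in all (0.976%). The called falls had a median log2FC of -1.13, and 76 of them were at least 2-fold. Over all tested genes the median log2FC was 0.0036. All 147 called genes lay apart without overlap between the groups, as did 2246 of the 15061 tested genes. Of the falls, 110 were protein-coding, 14 were long non-coding RNAs and 2 were transcribed pseudogenes, while the 21 higher genes were all protein-coding. At an unadjusted p under 0.05 there were 1326 genes, which besides the called ones were 507 higher and 672 lower. The balance depended on the method: limma-voom with library quality weights called 1437 higher and 1285 lower, the reverse order, while limma-voom without weights called 18 and 111.

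The number of calls rested on all 6 libraries. Without DMSO replicate 2 only 3 higher and 14 lower genes were called, and without PRT3789 replicate 2 there were 7 and 23. Leaving out DMSO replicate 3 gave 10 and 37, PRT3789 replicate 1 gave 16 and 27, and PRT3789 replicate 3 gave 12 and 46. Leaving out DMSO replicate 1 gave 27 and 129. Among the named falls, PRR15L, NFE2, CYP1A1, PALM3, P2RY2, ETS2, VASN, DAPP1, ELF3 and WNT7A were called without each library in turn. So were the rises NOG, PLAT and SFTPA2. All other named calls were lost at least without DMSO replicate 2, and their adjusted p without any 1 library reached at most 0.292.

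**Figure D1:**
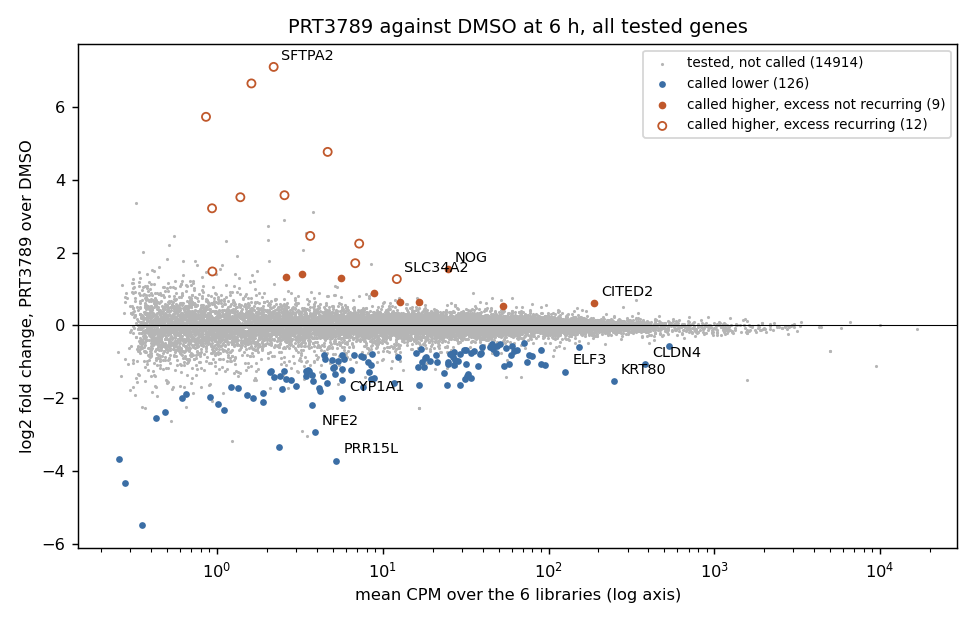
Each dot is 1 of the 15061 tested genes, with its mean CPM over the 6 libraries on a log axis and its log2FC from the edgeR fit; for genes near 0 CPM in a group that value depends on the prior count. Called falls (126, blue) reach from below 1 CPM to LIMA1 at 532 CPM, and most of the highest log2FC belong to the 12 open circles, called rises whose excess recurred in later libraries of either treatment.

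PRR15L had the largest log2FC among the falls with a mean of at least 5 CPM, and NFE2, with a mean of 3.89 CPM, was another of the large ones. PRR15L (chromosome 17, 47951967 to 47957883, GRCh38) stood at 7.12, 10.2 and 11.99 CPM in DMSO and at 0.72, 0.67 and 0.83 CPM in PRT3789. The PRT3789 libraries thus lay within a narrow band far below the lowest DMSO library. The log2FC was -3.71 ± 0.25 (SE; edgeR adjusted p = 0.00324). NFE2 (chromosome 12, 54292111 to 54301015) encodes a CNC-family transcription factor that pairs with small MAF proteins and is best known from platelets and red cells. It was measured at 6.18, 7.04 and 7.42 CPM in DMSO and at 0.81, 0.71 and 1.16 CPM in PRT3789, a log2FC of -2.94 ± 0.21. CYP1A1, the cytochrome P450 classically induced through the aryl hydrocarbon receptor, went from 9.88, 8.70 and 8.75 CPM to 2.28, 2.46 and 2.06 CPM.

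KRT80, CLDN4, LIMA1, STX3 and ELF3 were the 5 most abundant called falls. KRT80, an epithelial type II keratin (chromosome 12, 52168996 to 52192014), stood at 408, 361 and 333 CPM in DMSO and at 136, 147 and 101 CPM in PRT3789. No PRT3789 library came near the lowest DMSO library, and the level was 2.88-fold lower (log2FC -1.52 ± 0.16, edgeR adjusted p = 0.0106). Without DMSO replicate 2 or PRT3789 replicate 1 the KRT80 call was lost, with an adjusted p of at most 0.082. CLDN4, a tight junction claudin, was measured at 476, 561 and 508 CPM in DMSO and at 245, 245 and 252 CPM in PRT3789. NECTIN4, a cell adhesion protein and target of an antibody-drug conjugate, stood at 47.3, 43.4 and 42.3 CPM and at 14.0, 16.9 and 11.6 CPM. LIMA1, which binds and stabilises actin filaments, was the most abundant called gene, at 637 ± 24.4 CPM in DMSO and 427 ± 9.92 CPM in PRT3789 (SD, n = 3). Its fall was smaller, with a log2FC of -0.58 ± 0.09, and its call was lost without any 1 of the 6 libraries. STX3, a syntaxin of apical membrane traffic, fell from 183 ± 5.24 to 122 ± 3.50 CPM, and TUFT1 from 130 ± 6.90 to 61.1 ± 3.72 CPM.

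Transcription factors were among the named falls. ELF3, an ETS factor of epithelial differentiation, stood at 164, 180 and 190 CPM in DMSO and at 70.8, 74.0 and 76.8 CPM in PRT3789, a log2FC of -1.27 ± 0.09 (edgeR adjusted p = 0.00324). ETS2, another ETS factor, was measured at 55.4, 44.8 and 48.4 CPM and at 18.5, 18.5 and 18.2 CPM. VDR, the vitamin D receptor, stood at 52.3, 43.7 and 42.5 CPM and at 16.7, 18.4 and 14.6 CPM. ZBED2, a zinc finger factor, fell from 37.2 ± 3.62 to 11.9 ± 1.93 CPM, and MAB21L4 from 17.6 ± 2.18 to 5.89 ± 0.53 CPM (SD, n = 3). On the list of epithelial transcription factors, 3 of 26 measured genes (ELF3, ZBED2 and MAB21L4) were called lower and 0 higher, against 0.837% and 0.139% of all tested genes. Of the 26, 18 were below 0, against 7397 of all 15061 tested genes, and the median log2FC of the list was -0.11. Members such as GRHL3 (log2FC -0.69, adjusted p = 0.058) and TFAP2C (log2FC -0.94, adjusted p = 0.0562) missed the threshold, as did FOXA1 and GATA3, whose values were above 0 at 0.33 and 0.43.

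The named falls also held single receptors and signalling proteins, for which no list was counted. FGFR2, a fibroblast growth factor receptor, fell from 73.9 ± 4.86 to 34.4 ± 2.99 CPM. P2RY2, a receptor for extracellular nucleotides, stood at 13.1, 12.5 and 13.1 CPM in DMSO and at 4.39, 4.85 and 4.95 CPM in PRT3789. The Toll-like receptors TLR7 and TLR3, which sense single-stranded and double-stranded RNA, fell from 8.34 ± 1.71 to 2.96 ± 0.69 CPM and from 11.46 ± 1.32 to 5.41 ± 0.86 CPM (SD, n = 3). Both of these calls were lost without any library other than DMSO replicate 1, with an adjusted p of at most 0.183. SOCS1, an inhibitor of cytokine receptor signalling, fell from 7.37 ± 0.56 to 2.91 ± 0.63 CPM. DAPP1, an adaptor that binds phosphoinositides, stood at 12.2, 11.9 and 11.2 CPM and at 4.91, 4.85 and 4.78 CPM. VASN, a membrane protein that binds TGF-beta, stood at 35.6, 34.5 and 30.8 CPM and at 13.9, 13.7 and 12.99 CPM. In both of these genes the PRT3789 libraries were less spread than the DMSO libraries.

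Further falls with a mean of at least 5 CPM and at least 2-fold were CRYBG2, PALM3, TRIM16, N4BP3, SPSB1, SLC29A3, ODAPH, CSRNP1, RAB20 and the long non-coding RNA LINC02967. Their log2FC ran from -1.69 ± 0.15 for LINC02967 to -1.10 ± 0.12 for RAB20 (SE). SLC29A3 is a nucleoside transporter of lysosomes, PALM3 a membrane-bound paralemmin and RAB20 a small GTPase of membrane traffic. TRIM16 fell from 46.6 ± 7.15 to 18.4 ± 2.10 CPM and its near copy TRIM16L, annotated as a transcribed pseudogene, from 28.3 ± 3.21 to 14.2 ± 1.08 CPM (SD, n = 3). The shared sequence of TRIM16 and TRIM16L leaves the division of reads between them uncertain. Outside the naming rule, and named after its values were seen, SMIM5 fell from 4.30 to 0.419 CPM. IL36RN, an interleukin-36 receptor antagonist named in the same way, fell from 1.83 to 0.364 CPM.

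**Figure D2:**
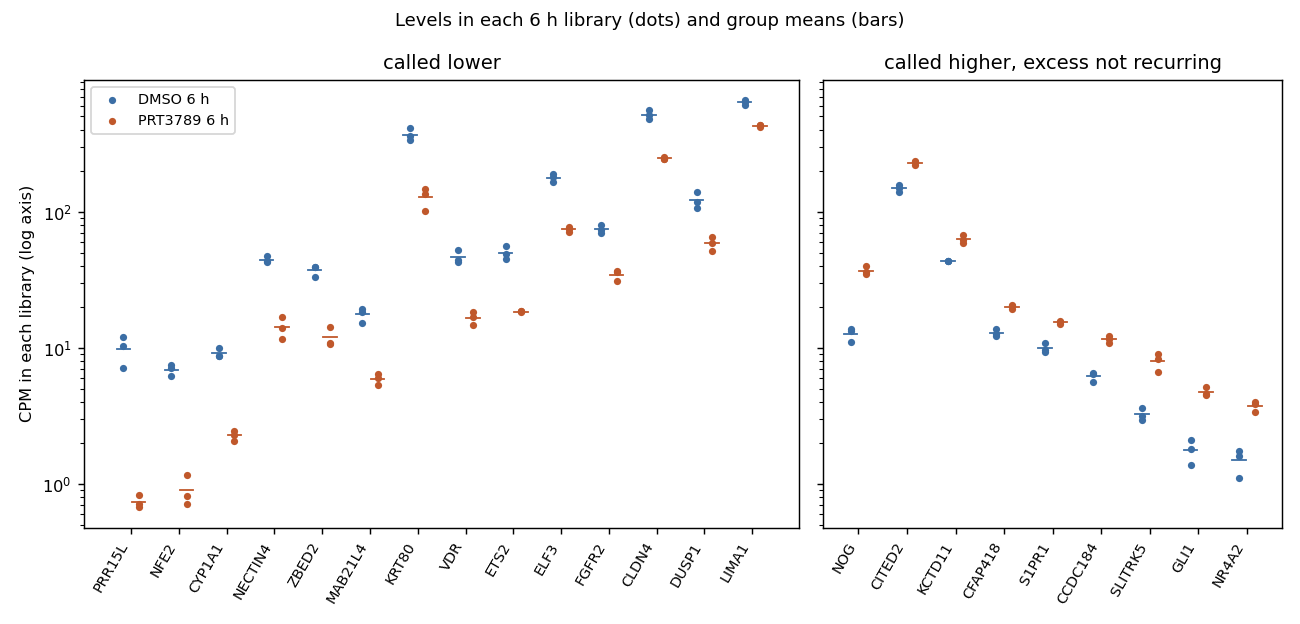
CPM on a log axis in each DMSO (blue) and PRT3789 (orange) library of 6 h, with bars at the group means, for 14 called falls and the 9 called rises whose excess did not recur. No gene shows overlap between its groups, and PRR15L and NFE2 have the widest gaps.

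Promoter sequence was looked at because the AP-1 subunit FOSL1 was among the falls and because SWI/SNF complexes are known to work at AP-1 sites. For AP-1 the letters TGANTCA were searched, with any base at N, a pattern that reads the same on both strands. The pattern is wider than the common AP-1 site, which has C or G at N, and the counts below include matches with A or T there. TEAD factors bind GGAATG, searched here on both strands. The window ran from 250 bases before to 50 bases after 1 start per gene, in the RefSeq table of GRCh38.p14. A window was found for 92 of the 126 falls and for 11749 of all 15061 tested genes. The AP-1 letters stood in 12 of 92 falls (13.04%) and in 549 of 11749 windows of all tested genes (4.673%). The TEAD letters stood in 12 of 92 falls (13.04%) and in 1279 of 11749 windows (10.89%). MAB21L4 and ODAPH held both motifs at separate positions. Of the 4 rises with a window whose excess did not recur, KCTD11 held the AP-1 letters and none held the TEAD letters. A match describes letters only and is no evidence of binding. Stretches of 100 bases that hold the AP-1 letters are shown, 5′ to 3′ on the strand of the gene with those letters in capitals, for falls in which the letters lie at different distances from the start. The MAB21L4 stretch is chr2:240896157-240896256 on the minus strand, with 1 match 53 bases before the start used. The annotated span of MAB21L4 reaches 240896839, so this start and stretch lie inside the gene and not upstream of its outermost start. The ODAPH stretch is chr4:75555957-75556056 on the plus strand, with matches 62 (A at N) and 46 (C at N) bases before the start. The CLDN4 stretch is chr7:73830746-73830845 on the plus strand, with matches 242 (T at N) and 161 (C at N) bases before the start.
MAB21L4: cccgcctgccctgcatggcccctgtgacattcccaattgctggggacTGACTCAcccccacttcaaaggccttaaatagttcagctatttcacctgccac
ODAPH: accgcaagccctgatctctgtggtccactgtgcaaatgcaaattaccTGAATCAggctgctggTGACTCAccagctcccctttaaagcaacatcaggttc
CLDN4: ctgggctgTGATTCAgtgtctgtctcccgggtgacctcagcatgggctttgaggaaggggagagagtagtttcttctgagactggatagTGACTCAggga

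On the list of MAPK feedback and target genes, 4 of 25 measured members were called lower and 0 higher, against a background of 0.837% and 0.139%. Scaled by total counts, 3 were called lower. Without DMSO replicate 2 or 3, or without PRT3789 replicate 1 or 2, 0 were called. DUSP1, a phosphatase that switches off MAP kinases, stood at 107, 117 and 138 CPM in DMSO and at 59.1, 51.2 and 65.5 CPM in PRT3789 (log2FC -1.05 ± 0.14, edgeR adjusted p = 0.0238). EPHA2, an ephrin receptor, fell from 78.2 ± 12.3 to 37.7 ± 4.904 CPM, and LIF, a cytokine of the IL-6 family, from 4.98 ± 0.55 to 2.12 ± 0.24 CPM (SD, n = 3). IER3, an early response gene that also limits cell death, fell from 51.7 ± 7.21 to 23.8 ± 3.78 CPM. The list did not move as a block: its median log2FC was -0.08, and DUSP4 and DUSP6 had values of 0.92 and 0.80 with an adjusted p of 0.058 and 0.309. Both also showed the excess in later libraries that is described with the rises. HBEGF, a ligand of the EGF receptor, fell from 37.7 ± 0.85 to 23.8 ± 1.38 CPM and was the 1 called gene of 12 measured in the EGFR family.

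AP-1 and early response factors held 4 called falls and 1 called rise among 25 measured, against 0.837% and 0.139% of all tested genes, with a median log2FC of 0.08. The falls were IER3, FOSL1, IER5 and IER5L. Scaled by total counts, the list held 3 falls and 1 rise. Without DMSO replicate 2 or 3, or without PRT3789 replicate 1 or 2, it held 0 called genes. FOSL1, the AP-1 subunit FRA1, was at 8.74, 8.23 and 8.57 CPM in DMSO and at 5.04, 4.31 and 5.25 CPM in PRT3789, and its call was lost without any 1 of the 6 libraries. IER5 fell from 53.8 ± 3.78 to 35.5 ± 0.94 CPM and IER5L from 33.5 ± 1.21 to 20.1 ± 1.07 CPM (SD, n = 3). The rise was NR4A2, an orphan nuclear receptor named here after its values were seen, from 1.48 to 3.75 CPM. Its relative NR4A3 had a log2FC of 1.501 with an adjusted p of 0.0609. Outside the list and the naming rule, JDP2, an AP-1 repressor, fell from 37.6 to 19.1 CPM, also named after its values were seen.

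The lists that follow held 0 to 3 called falls each, against 0.837% of all tested genes. Scaled by total counts, the YAP/TEAD, Wnt and p53 lists held 1 each, epithelial junctions 2 and keratins 1. Of 32 measured YAP/TEAD targets 2 were called lower and 0 higher, with a median log2FC of 0.0006. They were F3, the tissue factor that starts coagulation, at 71.8 ± 3.20 and 48.7 ± 1.64 CPM, and FJX1 at 20.01 ± 0.98 and 11.8 ± 0.97 CPM (SD, n = 3). Of 33 measured Wnt pathway genes 2 were called lower, both of them ligands. WNT7A stood at 6.92, 7.20 and 6.62 CPM in DMSO and at 2.44, 2.29 and 2.26 CPM in PRT3789, and WNT9A fell from 23.6 ± 1.80 to 12.8 ± 1.46 CPM. The list of p53 targets and cell cycle inhibitors held 2 called falls among 29 measured. CDKN1A, the cyclin-dependent kinase inhibitor p21, stood at 57.1, 58.1 and 61.0 CPM and at 39.4, 40.6 and 39.0 CPM, and PHLDA3 fell from 76.4 ± 8.52 to 43.1 ± 3.89 CPM. Epithelial junctions held 3 called falls among 38 measured, namely CLDN4, NECTIN4 and the tight junction protein MARVELD3, and keratins and cornified envelope genes held 1 among 22, KRT80. S phase (43 measured) and G2/M phase (54 measured) held 0 called genes, with medians of 0.005 and -0.02 and at most 1 member at an unadjusted p under 0.05.

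Of 46 measured interferon-stimulated genes 3 were called lower and 0 higher, against 0.837% and 0.139% of all tested genes. Below 0 lay 35 of the 46, against 7397 of all 15061 tested genes. The median log2FC of the list was -0.32, against 0.0036 over all tested genes. That median stayed below 0 without any 1 library, between -0.37 and -0.20. Scaled by total counts, 1 member was called. IFIT3, an antiviral protein induced by interferon, stood at 7.55, 7.16 and 9.02 CPM in DMSO and at 4.23, 3.54 and 2.66 CPM in PRT3789. GBP3, a guanylate-binding protein, was at 33.6, 36.4 and 32.5 CPM and at 19.9, 19.6 and 16.4 CPM. SAMD9L, an antiviral factor, fell from 6.49 ± 0.24 to 3.36 ± 0.44 CPM (SD, n = 3). OAS1 (log2FC -1.30, adjusted p = 0.0734), IFIT2 (log2FC -1.01, adjusted p = 0.0707) and GBP2 (log2FC -0.64, adjusted p = 0.0526) missed the threshold with groups that did not overlap. In all, 12 members were below 0 and 1 above at an unadjusted p under 0.05, against 1326 of 15061 tested genes in either direction. The 1 above was IRF1, with a log2FC of 0.25. The calls of IFIT3 and SAMD9L were lost without any 1 of the 6 libraries, and GBP3 lost its call without any library other than DMSO replicate 1. The adjusted p of these 3 reached at most 0.181.

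The BCL2 family, whose members promote or block mitochondrial cell death, held 0 called genes among 18 measured. Below 0 lay 14 of the 18, against 7397 of all 15061 tested genes. At an unadjusted p under 0.05, 6 members were below 0 and 0 above, against 1326 of 15061 tested genes in either direction. BIK, a death-promoting member, had 5.93 CPM in DMSO and 2.44 CPM in PRT3789 (log2FC -1.28, adjusted p = 0.085), and BCL2L1, which encodes BCL-XL, had 143 and 111 CPM (log2FC -0.36, adjusted p = 0.123). Ribosomal protein genes were also not called, 72 of 78 below 0 with a median log2FC of -0.13. That median ran from -0.37 to 0.08 when 1 library was left out, and thus changed sign.

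**Figure D3:**
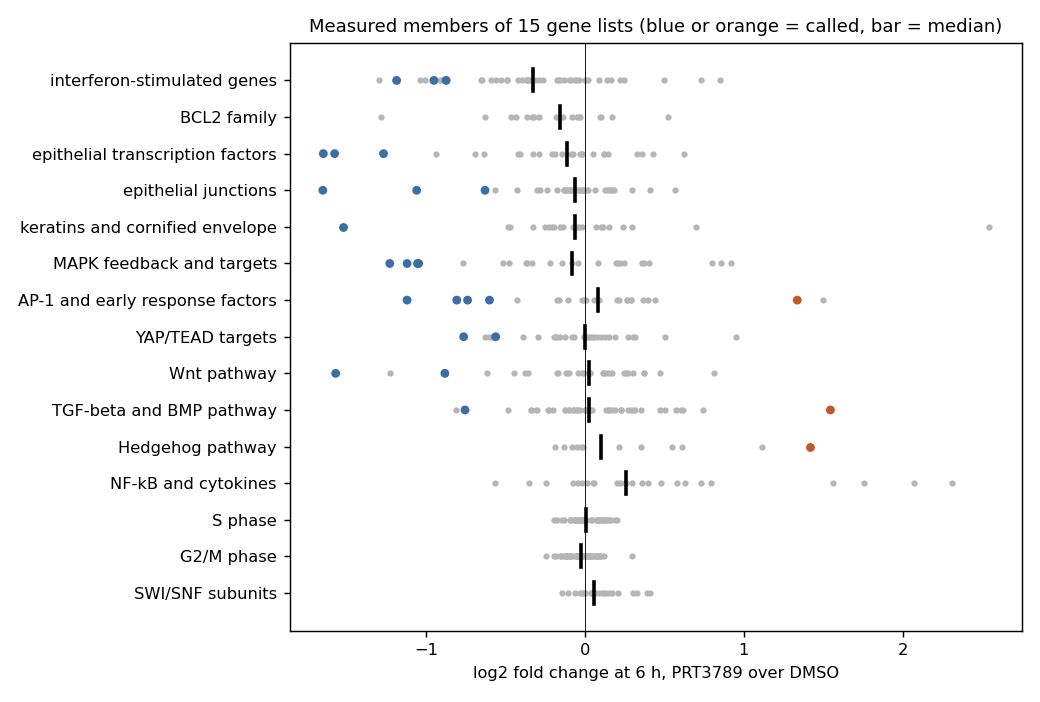
Each dot is a measured member of 1 of 15 gene lists, at its log2FC after 6 h, with called members in blue (lower) or orange (higher) and a bar at the median. The bar of the interferon-stimulated genes lies at -0.32 and that of the NF-kB and cytokine list at 0.26, while called members lie at the edges of lists whose bars are near 0.

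Among the rises, 9 genes are set apart here because their excess at 6 h was not seen to recur in later libraries of either treatment. NOG, a secreted antagonist of bone morphogenetic proteins (chromosome 17, 56593699 to 56595611), stood at 10.9, 13.3 and 13.6 CPM in DMSO and at 34.9, 35.9 and 39.6 CPM in PRT3789. Every PRT3789 library was far above every DMSO library, and the level was 2.92-fold higher (log2FC 1.55 ± 0.12, edgeR adjusted p = 0.00324). CITED2, a co-regulator that binds CBP and p300, was the most abundant rise, at 139, 150 and 156 CPM and at 230, 220 and 234 CPM, 1.54-fold higher. KCTD11, an adaptor of a ubiquitin ligase that restrains Hedgehog signalling, stood at 43.2, 43.3 and 43.6 CPM and at 59.1, 66.8 and 61.5 CPM. The KCTD11 call was lost without any 1 of the 6 libraries, with an adjusted p of at most 0.278.

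GLI1, the transcription factor and target gene of Hedgehog signalling, was at 1.81, 2.10 and 1.38 CPM in DMSO and at 4.59, 5.12 and 4.48 CPM in PRT3789 (log2FC 1.42 ± 0.18). It was the 1 called gene of 12 measured in the Hedgehog list, against 0.139% of all tested genes called higher. The other target genes of the pathway were HHIP, with a log2FC of 1.11 (adjusted p = 0.153), and the receptor PTCH1, with 0.36 (adjusted p = 0.879). The signal transducer SMO had a log2FC of -0.01. SLITRK5, a neuronal membrane protein, rose from 3.23 ± 0.31 to 7.97 ± 1.25 CPM, and CCDC184 from 6.17 ± 0.51 to 11.52 ± 0.71 CPM (SD, n = 3). S1PR1, a receptor for sphingosine 1-phosphate, rose from 9.88 ± 0.83 to 15.4 ± 0.32 CPM, and CFAP418, a protein linked to cilia and photoreceptors, from 12.9 ± 0.81 to 20.1 ± 0.81 CPM. The GLI1, CCDC184, S1PR1, CITED2 and CFAP418 calls were lost without any library other than DMSO replicate 1, with an adjusted p of at most 0.268.

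In the TGF-beta and BMP list, 1 of 46 measured genes was called higher (NOG) and 1 lower (SMAD3), against 0.139% and 0.837% of all tested genes. SMAD3, which carries the TGF-beta signal to the nucleus, stood at 54.9, 46.0 and 46.5 CPM in DMSO and at 28.7, 31.9 and 26.8 CPM in PRT3789. The BMP target genes ID2 and ID4 had a log2FC of 0.75 and 0.62, with an adjusted p of 0.157 and 0.145. TGIF1, a co-repressor of SMAD proteins, had 0.47 (adjusted p = 0.0868).

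The remaining 12 called rises had an excess that recurred in 3 later libraries, 1 of PRT3789 and 2 of DMSO. They were SFTPA1, SFTPA2, SLC34A2, CEACAM6, MSLN, WFDC2, AZGP1, SAA2, PDZK1IP1, PLAT, CD74 and HLA-DRA. An excess was counted as recurring where PRT3789 48 h replicate 3 exceeded the mean of replicates 1 and 2 of its group, and the mean of DMSO 72 h replicates 1 and 2 exceeded replicate 3, each by at least 0.25 of the difference at 6 h. This rule was chosen after the values were seen. It took in 12 of the 21 rises (57.1%) and 0 of the 126 falls, against 1064 of 7664 tested genes with a log2FC above 0 (13.9%) and 1030 of 7397 below 0 (13.9%). What these libraries share besides the excess was not tested.

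SFTPA2, a surfactant protein gene of alveolar type II cells, shows the pattern in counts. It had 2, 0 and 0 counts in the DMSO libraries of 6 h and 139, 149 and 107 counts in the PRT3789 libraries of 6 h. PRT3789 48 h replicate 3 had 130 counts, against 0 and 0 in replicates 1 and 2. DMSO 72 h replicates 1 and 2 had 104 and 106 counts, against 0 in replicate 3, and the PRT3789 libraries of 72 h had 2, 0 and 0. In these data a high SFTPA2 count therefore went with particular libraries of both treatments. SLC34A2, a phosphate transporter of the same cells, exceeded its 6 h DMSO level by 10.6 CPM in PRT3789, and the excess of the later libraries was 10.2 and 10.5 CPM. PLAT, which encodes tissue plasminogen activator, had an excess of 9.89 CPM at 6 h and of 10.2 and 9.47 CPM later. CD74 and HLA-DRA, of MHC class II antigen presentation, exceeded by 7.64 and 5.35 CPM at 6 h, by 7.41 and 5.52 CPM in the 48 h library and by 8.24 and 4.96 CPM in the 72 h libraries. Some of the 12 were also high in other later libraries, in CPM scaled over all 18 libraries. PDZK1IP1 stood at 8.52 CPM in DMSO 48 h replicate 1 and at 6.09 CPM in DMSO 72 h replicate 3. SLC34A2 stood at 22.8, 18.8 and 17.9 CPM in the DMSO libraries of 48 h, against 17.3, 18.3 and 18.7 CPM in PRT3789 at 6 h.

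**Figure D4:**
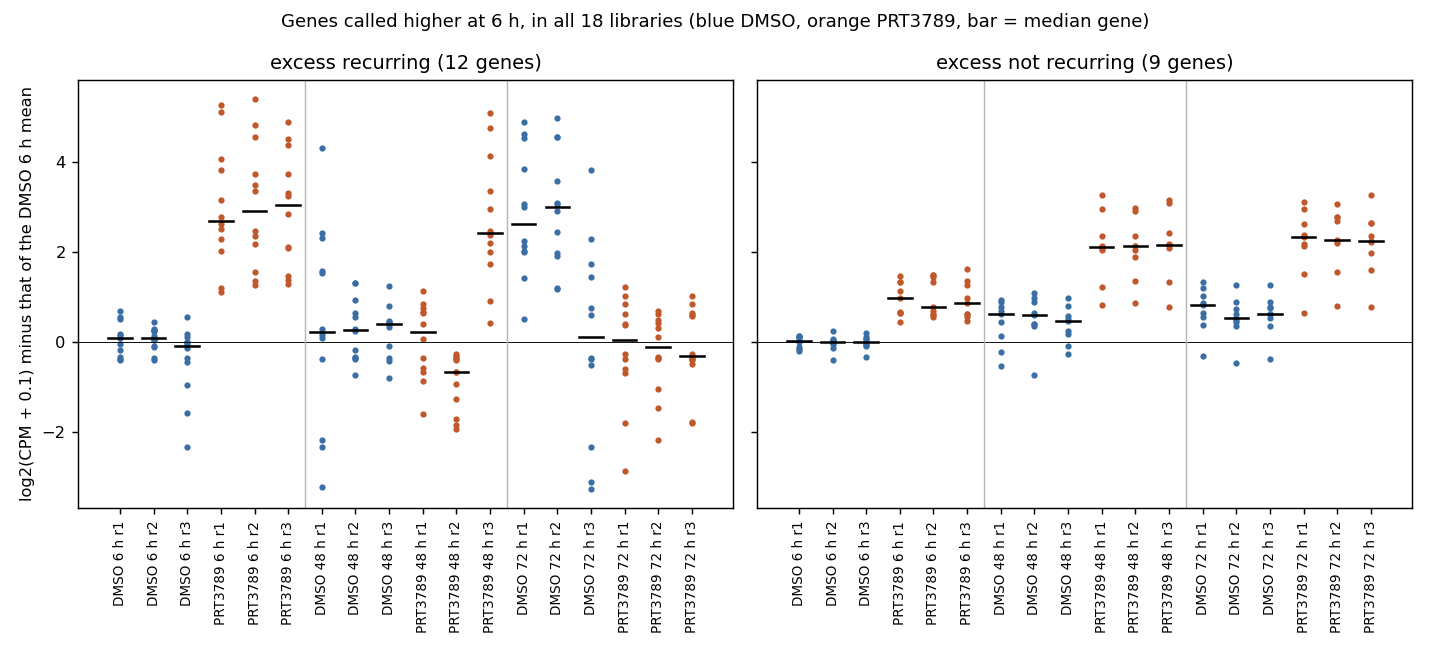
The 21 genes called higher at 6 h, in all 18 libraries, as log2(CPM + 0.1) minus that of the mean of the DMSO 6 h libraries, with DMSO in blue, PRT3789 in orange and a bar at the median gene. On the left, the bars of PRT3789 48 h replicate 3 and of DMSO 72 h replicates 1 and 2 stand near those of the 6 h PRT3789 libraries; on the right, every PRT3789 bar of 48 h and 72 h stands above every DMSO bar.

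These 12 genes summed to 13.3 to 16.7 CPM in the DMSO libraries and to 69.8 to 80.1 CPM in the PRT3789 libraries of 6 h. They were picked as higher in these same libraries, so the gap follows from that choice and is a description only. The wider list of lung epithelial lineage genes, 27 genes with 6 at 0 in all 6 libraries, summed to 152 to 187 CPM and to 237 to 250 CPM. Most of that sum was CAV1, which had 135 and 182 CPM with an adjusted p of 0.142. SFTPC, SCGB1A1 and SCGB3A1 were among the 6 genes at 0, and SFTPB stayed at or below 0.207 CPM in each 6 h library. Of the 3 genes called in this list, SFTPA1, SFTPA2 and SLC34A2, all had a recurring excess. The same held for CD74 and HLA-DRA in the antigen presentation list, where 9 of the 19 members above 0 had one, against 13.9% of all tested genes above 0.

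NF-kB and cytokine genes leaned upward without a call. Of 25 measured, 0 were called and 19 lay above 0, against 7664 of all 15061 tested genes. The median log2FC was 0.26. At an unadjusted p under 0.05 there were 6 above and 1 below 0, against 1326 of 15061 tested genes in either direction. RELB, a subunit of NF-kB, stood at 9.29, 10.8 and 8.26 CPM in DMSO and at 16.4, 15.7 and 14.9 CPM in PRT3789 (log2FC 0.73 ± 0.12, edgeR adjusted p = 0.0538). TNFAIP3, the feedback inhibitor A20, had a log2FC of 0.80 ± 0.14 (adjusted p = 0.0554). NFKBIA, the inhibitor IkB-alpha, pointed the other way with -0.56 ± 0.12 (adjusted p = 0.114). The chemokine CXCL8 was uneven among the PRT3789 libraries, with 1.496, 5.46 and 9.002 CPM against 1.02, 1.98 and 0.75 CPM in DMSO, and its groups overlapped. Of the 19 members above 0, the chemokine CX3CL1, ICAM1, NFKBIE and NFKBIZ had a recurring excess, against 13.9% of all tested genes above 0.

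No member was called in 20 of the 40 lists. Besides those already named, these covered Polycomb complexes (29 measured), the MYC network (13), Notch (20), mesenchymal genes (24), integrins (16), hypoxia and glycolysis (35), sterol and fatty acid synthesis (35), the unfolded protein and integrated stress response (34), heat shock (19), histones (29) and mitochondrially encoded genes (13). Their median log2FC lay between -0.18 for histones and 0.11 for sterol and fatty acid synthesis. The histone median ran from -0.52 to 0.0018 when 1 library was left out, and thus changed sign. Replication-dependent histone transcripts mostly lack a poly(A) tail, which the libraries select for.

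Most falls were also found in the libraries of 48 h and 72 h, which played no part in calling them. Fitted on their own libraries, 122 of the 126 falls were called lower at 48 h, where 25.6% of 15500 tested genes were called lower. At 72 h 120 were called lower, against 29.7% of 15511 tested genes. None was called higher at 48 h and 1, GBP3, was called higher at 72 h. The median log2FC of the falls was -1.13 at 6 h, -1.67 at 48 h and -1.88 at 72 h. KRT80 had a log2FC of -1.52, -5.06 and -5.01 at the 3 times. PRR15L, by contrast, had -3.71, -4.42 and -5.02, and its change from 6 h to 48 h did not pass the test (-0.68 ± 0.40, adjusted p = 0.32).

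Of the 21 rises, 9 were called higher at 48 h, against 23.8% of all tested genes, and the same 9 at 72 h, against 28.9%. None was called lower at 48 h and 5 were at 72 h. The 9 were those whose excess did not recur. The rule that separated them uses PRT3789 libraries of 48 h and DMSO libraries of 72 h, so the later calls of both sets are partly fixed by it and are a description only. In the 9 the median log2FC was 0.90 at 6 h, 1.53 at 48 h and 1.36 at 72 h. NOG had 1.55, 1.53 and 1.35, a change from 6 h to 48 h of 0.0076 ± 0.14. GLI1 had 1.42, 2.37 and 2.63. The 5 called lower at 72 h all had a recurring excess, SLC34A2 among them with a log2FC of -3.57, where DMSO replicates 1 and 2 carried the excess.

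Whether an effect differed between 6 h and 48 h was tested by the interaction of treatment and time over 12 libraries, in which 2265 of 15940 genes (14.2%) passed. Of the called 6 h genes 81 passed, and the 6 h values that chose these genes also enter the test. Among the falls 71 passed: 64 were larger at 48 h and 7 smaller. ODAPH had 1 of the widest gaps, with a log2FC of -1.14 at 6 h and -4.59 at 48 h, and TLR7 had -1.495 and -4.70. Falls that were smaller at 48 h included ELF3 (-1.27 and -0.76, change 0.53 ± 0.10, edgeR adjusted p = 0.00441), TUFT1 (-1.09 and -0.66), TLR3 (-1.08 and -0.45) and N4BP3 (-1.22 and -0.68). Of the 21 rises 10 passed, 7 larger at 48 h and 3 smaller, and the 7 were all among the rises without recurrence, which the 48 h libraries helped to define. PLAU, which encodes urokinase, had a log2FC of -0.26 ± 0.08 at 6 h (199 and 166 CPM, edgeR adjusted p = 0.352) with groups that did not overlap. It stood at -2.91 at 48 h, a change of -2.64 ± 0.36.

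**Figure D5:**
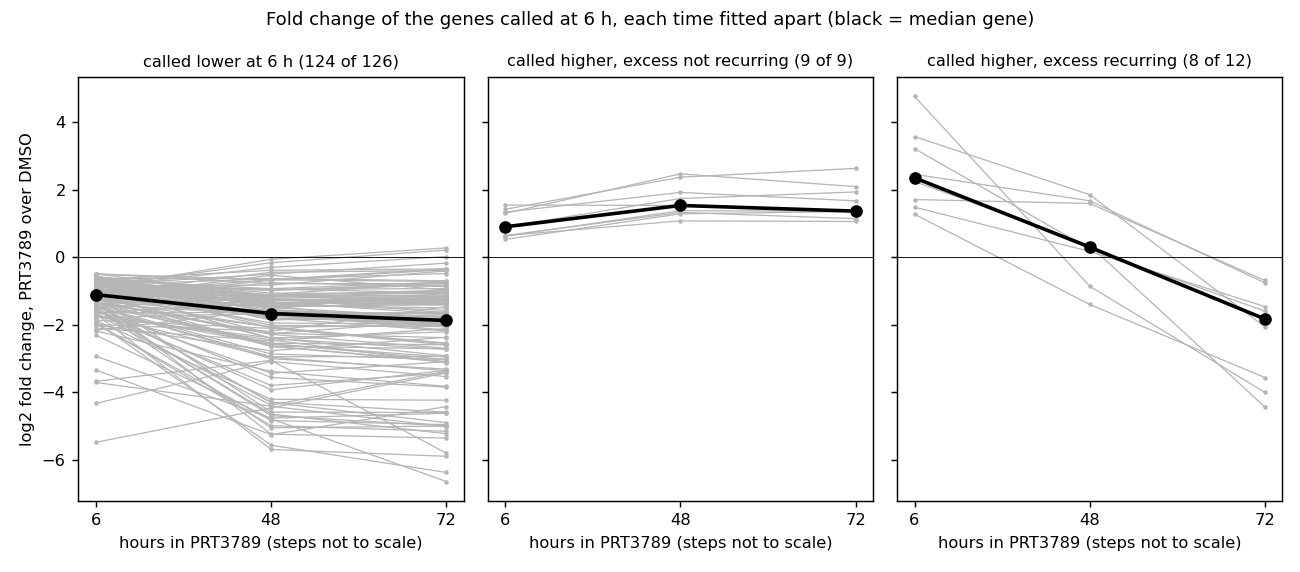
Lines join the log2FC of each gene called at 6 h across 6 h, 48 h and 72 h, each time fitted on its own 6 libraries, with the median gene in black and genes not tested at a later time left out. The falls and the 9 rises without recurrence keep their side of 0 for nearly all genes, while the 8 drawn rises with a recurring excess are below 0 at 72 h; libraries of these times defined the recurrence.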

How the data were processed

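The authors deposited 1 table of expected counts for 43236 gene symbols, already whole numbers. Per the labels and series design, reads were processed with nf-core/rnaseq 3.17.0 (Trim Galore, STAR to GRCh38.p14, annotation release 110, RSEM); versions of the single tools are not given in the sources used here. Strandedness was set automatically. Groups came from the labels. Genes were kept by filterByExpr (15061; 18827 symbols were 0 in all 6 libraries), scaled by TMM, and compared over the 6 libraries of 6 h by the robust quasi-likelihood F test of edgeR 4.0.16 in R 4.3.3 (two-sided). Calls needed p under 0.05 after Benjamini-Hochberg adjustment over all tested genes. Levels are CPM over TMM-scaled totals. Libraries of 48 h and 72 h were fitted alone, and the change of effect in 1 model of 12 libraries. The levels in the plot over all libraries were scaled over the 18 libraries, with 0.1 CPM added. Scripts were tested on simulated counts.

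The comparison, the 40 gene lists (1194 of 1209 symbols in the table) and the tests were chosen with earlier results of these data known. Named are SMARCA2, SMARCA4, KRT80 and PLAU; called rises (at most 20) and falls (at most 30) of largest log2FC with a mean of at least 5 CPM and no overlap; the 5 most abundant called genes per direction; and up to 4 called members per list. Readthrough and LOC names were left out, and 1 gene that the rule names is not reported here. Gene coordinates are from RefSeq (42276 symbols with an entry), and exonic lengths are from GENCODE v44 (28109 symbols matched). Alternatives were DESeq2 1.42.0 size factors, total counts, no filter, a filter of 1 CPM, DESeq2, limma-voom (limma 3.58.1) with and without quality weights, a replicate block, removal of each library's trend with transcript length, each library left out, a joint model of 18 libraries, an adjusted p under 0.01 and a 2-fold minimum. A length covariate and the exclusion of recurring genes were added after seeing the data.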

Additional observations from a re-analysis of the deposited data

Results flagged for a closer look

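The difference between PRT3789 and DMSO changed from 6 h to 48 h for 81 of the 147 genes called at 6 h, by the interaction test in edgeR. Of all tested genes, 2265 of 15940 (14.2%) passed. The 6 h values that chose the 147 genes also enter the test. The 3 rises that passed with a smaller value at 48 h all had a recurring excess.

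GBP3 was lower at 6 h (log2FC -0.87) and not called at 48 h (-0.16), a change of 0.73 ± 0.13 (SE; edgeR adjusted p = 0.00235). At 72 h it was called higher with a log2FC of 0.21.

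SLC34A2 was called higher at 6 h (log2FC 1.27) and had -1.40 at 48 h, a change of -2.66 ± 0.52 (edgeR adjusted p = 0.00446). Its excess recurred in PRT3789 48 h replicate 3 and in DMSO 72 h replicates 1 and 2.

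SFTPA2 was found in libraries outside the 6 h comparison: at 4.30 CPM in PRT3789 48 h replicate 3, at 3.68 CPM in DMSO 72 h replicate 1 and at 3.96 CPM in DMSO 72 h replicate 2. The other DMSO libraries of 48 h and 72 h held at most 1 count. The labels give no batch that sets these 3 libraries apart, and the source of their SFTPA2 reads was not tested.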

How the results depend on the processing

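Of 67 named called genes, 12 were called under all 17 alternatives run per gene, 43 under every alternative that keeps all 6 libraries, and 14 without each library. Over the named genes 943 values kept direction and call, 239 were no longer called, 2 became called and 6 reversed. The reversed values were all of uncalled genes near 0: SMARCA4 at 0.0017 with limma-voom quality weights and 0.19 without DMSO replicate 3, and SMARCA2 at -0.0046 with the length trend removed, -0.016 without DMSO replicate 3, -0.026 without PRT3789 replicate 2 and -0.019 with the length covariate. Counts of higher and lower genes were 7 and 28 at an adjusted p under 0.01, 95 and 308 in DESeq2, 1437 and 1285 in limma-voom with quality weights, 209 and 496 in the joint model of 18 libraries, and 690 and 1059 with the length covariate, which was added after seeing the data. There were 36 higher genes with no filter, 49 with the length trend removed and 9 without the genes of recurring excess (added after seeing the data). Lower genes at least 2-fold numbered 76. Leaving out 1 library gave 3 to 27 higher, 14 to 129 lower and 75 to 81 genes with a changed effect. The cause of these shifts was not tested. Deviations of same-numbered libraries from their group means correlated at 0.575, -0.589 and 0.890 across genes. These values cannot tell whether such libraries were paired, since the libraries also differed in their trend with transcript length. A replicate block gave 16 higher and 111 lower genes and 79 with a changed effect. All 21 rises and 126 falls were called in DESeq2, in voom with quality weights and with the length covariate, while the joint model called all 126 falls but 13 of the 21 rises. No scaling moved the median log2FC of all genes past 0.05. Without 1 library the log2FC ran from -0.026 to 0.16 for SMARCA2 and from -0.31 to 0.19 for SMARCA4. Depth (23402300 to 30690452 counts) was higher in every PRT3789 library than in every DMSO library of 6 h, and it limits genes of a few counts.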

Other observations

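KRT5, a basal cell keratin, was not called at 6 h (log2FC 2.54, adjusted p = 0.658). Scaled over all 18 libraries, it stood at 0.83, 1.03 and 16.5 CPM in the PRT3789 libraries of 6 h and at 1.37, 0.46 and 1.36 CPM in DMSO. It was at 17.4, 7.81 and 0.44 CPM in DMSO at 48 h, at 0.035, 0.041 and 0.099 CPM in PRT3789 at 48 h, at 0.21, 17.8 and 13.6 CPM in DMSO at 72 h, and at 7.001, 0.034 and 0.069 CPM in PRT3789 at 72 h. Of the 6 libraries above 5 CPM, PRT3789 6 h replicate 3 and DMSO 72 h replicate 2 were also high in SFTPA2, while PRT3789 48 h replicate 3 was high in SFTPA2 and low in KRT5.

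Some further falls outside the naming rule and the gene lists were named after their values were seen. SRC, a membrane tyrosine kinase, fell from 26.8 to 15.2 CPM, CXXC5 from 98.6 to 49.0 CPM, and TNFRSF1A, the main receptor for tumour necrosis factor, from 83.4 to 59.3 CPM. SOX7, an endoderm and endothelial transcription factor, fell from 3.06 to 0.709 CPM. The lncRNA TINCR, known from skin differentiation, had a log2FC of -0.91 at 6 h, -0.063 at 48 h and 0.27 at 72 h, a change from 6 h to 48 h of 0.87 (edgeR adjusted p = 0.00957).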
